A study of Mus musculus with 2 samples.

Results

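Oxidative phosphorylation is run by 4 proton-moving or ATP-making complexes of the inner mitochondrial membrane whose nuclear subunits carry the gene names used here, and 86 such genes were described among 20780 autosomal protein-coding genes. The members are the autosomal protein-coding genes of GENCODE release M21 whose symbols begin with Nduf (complex I subunits and assembly factors), Uqcr (complex III), Cox4 to Cox8 (complex IV) or Atp5 (complex V). Ndufa4 and its paralog Ndufa4l2 are counted with complex IV, where the Ndufa4 protein is known to belong. The choice used names and not measured values, and the X-linked genes Ndufa1, Ndufb11 and Cox7b fell outside it. By known role the members comprised 7 core subunits, 27 accessory subunits and 8 assembly factors of complex I, 8 genes of complex III, 19 of complex IV, and 5 F1 and 12 Fo or stalk genes of complex V.

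Open chromatin was mapped by DNase-seq in the kidney of newborn mice (strain B6NCrl, age 0 days) in 1 group of 2 biological replicates. Nothing in the labels names a treatment, a genotype beyond the strain or a second tissue, and sex was not collected. Both replicates carry the same donor record, and separate animals are not named, so differences between the replicates may be technical only. DNase I cuts DNA that is not wrapped in nucleosomes, so a peak of cuts marks open chromatin, such as that of a promoter in use.

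Complex I (NADH dehydrogenase) passes electrons from NADH to ubiquinone, complex III (cytochrome bc1) passes them on to cytochrome c, and complex IV (cytochrome c oxidase) passes them to oxygen. Complex V (ATP synthase) uses the proton gradient built by the others. The kidney tubule spends much of its ATP on salt transport and is rich in mitochondria. Most subunits come from a single gene used in nearly all cells, but several complex IV subunits have a paralog used mainly in muscle, brown fat, lung or testis. NRF1, GABP (an ETS factor), YY1 and the estrogen-related receptors are known regulators of nuclear genes for respiration.

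The lists held 266133 peaks in replicate 1 and 257133 in replicate 2, and sequencing depth is unknown because they hold no read counts. Of 15 kidney markers, 13 had a promoter peak in both replicates, with mean signals of 14.8 to 116. Many genes of any kind have one (15244 of all 20780), so the count alone says little of tissue. Among them were the nephron progenitor gene Six2, the podocyte gene Nphs1 and the stromal gene Foxd1. Slc34a1, a phosphate transporter of the mature proximal tubule, had none in either, and Aqp2, the water channel of the collecting duct, had one in replicate 2 only. In whole tissue, a weak peak in many cells and a strong peak in few cells cannot be told apart.

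The sequences under the most accessible member promoter of each complex are given first, because they show how different the letters of strongly open promoters were. Each is the strongest promoter peak of its gene in replicate 1, read on the gene's strand from 5′ to 3′ in assembly mm10 (GRCm38). Capitals mark exact matches to the motifs examined here, which in these 4 peaks were CCAAT boxes alone (CCAAT, or ATTGG when read from the other strand). The peak of Ndufs8, an iron-sulfur core subunit of complex I, lay at chr19:3912821-3912970, on the minus strand. That of Uqcrq, a small subunit of complex III, lay at chr11:53430901-53431050, on the minus strand. That of Cox8a, the widely used form of a small complex IV subunit, lay at chr19:7217641-7217790, on the minus strand. That of Atp5g1, which encodes the c subunit of the ATP synthase rotor, lay at chr11:96075881-96076030, on the minus strand. GC content was 50% in Ndufs8, 54.7% in Uqcrq, 56.7% in Cox8a and 54.7% in Atp5g1, and Ndufs8 and Cox8a held the CCAAT boxes.
Ndufs8: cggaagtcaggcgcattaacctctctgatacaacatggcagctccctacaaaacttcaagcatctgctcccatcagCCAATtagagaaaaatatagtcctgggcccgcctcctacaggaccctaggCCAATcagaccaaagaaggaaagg
Uqcrq: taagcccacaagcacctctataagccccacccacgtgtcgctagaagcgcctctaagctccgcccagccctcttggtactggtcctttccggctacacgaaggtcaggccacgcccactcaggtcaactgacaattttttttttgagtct
Cox8a: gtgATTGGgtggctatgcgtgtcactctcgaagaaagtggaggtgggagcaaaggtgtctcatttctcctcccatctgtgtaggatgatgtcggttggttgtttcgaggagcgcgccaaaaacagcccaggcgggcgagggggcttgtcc
Atp5g1: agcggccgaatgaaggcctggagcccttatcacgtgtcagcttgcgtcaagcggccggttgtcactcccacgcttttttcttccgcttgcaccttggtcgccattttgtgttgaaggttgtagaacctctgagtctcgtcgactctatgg

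Isoforms of narrow use follow, with the widely used partners Cox6a1 and Cox6b1. The partner Cox8a is printed above, and Cox4i1 and Cox7a2 are not shown. The peak of Cox4i2, the form of subunit IV known from lung and low oxygen, lay at chr2:152754041-152754190, on the plus strand. The stretch shown for Cox7a1, a form used in muscle and brown fat, is chr7:30184041-30184173, on the plus strand. For Cox8b, a muscle and brown fat form of Cox8a, the peak of replicate 2 at chr7:140900101-140900250, on the minus strand, is shown because replicate 1 had none. This stretch lies inside the gene, from 196 to 345 bp downstream of its transcription start site. Cox6a1, whose muscle form Cox6a2 had no promoter peak, had its peak at chr5:115349001-115349150, on the minus strand. The testis isoform Cox6b2 is shown from chr7:4753065-4753190, on the minus strand, and its partner Cox6b1 from chr7:30626141-30626290, on the minus strand. Cox7a1 and Cox6b2 are cut short to leave out annotated untranslated bases. GC content ran from 49.6% in Cox7a1 and 53.3% in Cox8b to 67.3% in Cox4i2. Cox6a1 held 14 CpG dinucleotides, the narrow isoform Cox4i2 held 11 and Cox6b1 held 9. The Cox7a1 stretch held 4, the Cox6b2 stretch 5 and Cox8b 5. Cox6a1 is the sequence in this set with a match to the 10-letter NRF1 motif (its longer run of capitals). The other capitals are CCAAT boxes.
Cox4i2: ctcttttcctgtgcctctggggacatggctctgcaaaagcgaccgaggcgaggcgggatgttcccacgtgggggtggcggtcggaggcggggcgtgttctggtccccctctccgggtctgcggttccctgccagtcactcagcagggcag
Cox7a1: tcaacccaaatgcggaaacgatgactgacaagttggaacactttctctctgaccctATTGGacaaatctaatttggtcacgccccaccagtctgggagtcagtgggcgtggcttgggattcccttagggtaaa
Cox8b: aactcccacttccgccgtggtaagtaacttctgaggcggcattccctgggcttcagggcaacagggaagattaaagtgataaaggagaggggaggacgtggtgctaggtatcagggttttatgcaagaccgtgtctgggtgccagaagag
Cox6a1: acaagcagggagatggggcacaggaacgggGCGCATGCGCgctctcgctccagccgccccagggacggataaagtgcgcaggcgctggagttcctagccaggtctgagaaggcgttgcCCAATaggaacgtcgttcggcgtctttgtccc
Cox6b2: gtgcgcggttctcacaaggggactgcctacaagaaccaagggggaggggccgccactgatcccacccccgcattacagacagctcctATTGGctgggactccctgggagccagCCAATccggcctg
Cox6b1: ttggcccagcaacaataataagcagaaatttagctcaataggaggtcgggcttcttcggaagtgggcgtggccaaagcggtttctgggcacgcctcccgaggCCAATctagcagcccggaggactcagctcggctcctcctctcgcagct

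Promoters of the oxidative phosphorylation genes were open almost throughout the set. A promoter peak is here a peak that touches the stretch from 1 kb before to 1 kb after any transcription start site (TSS) of the gene, and promoter signal is the value of the strongest of them in the authors' own unit. In both replicates such a peak was found for 82 of the 86 members (95.3%, exact binomial interval at 95% from 88.5 to 98.7), beside 73.4% of all 20780 genes. Taken singly, replicate 1 had one for 82 members, beside 74.4% of all genes, and replicate 2 for 83, beside 74.5%. All 42 complex I genes, all 8 complex III genes and all 17 complex V genes were among the 82. The 4 others, Cox6a2, Cox8b, Cox7b2 and Cox8c, are complex IV isoforms of narrow use. Leaving out the 8 narrow isoforms, all 78 remaining members had a peak in both replicates. No promoter peak in either replicate was found for 3 members (3.49%), beside 24.4% of all genes. The intervals cover counting error only, and with 1 group of 2 replicates no test was made.

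The members' promoters also ranked high in signal. The median signal of the 82 was 140.8 in replicate 1 and 161.6 in replicate 2, beside 97.2 and 106.5 for all 15244 genes with a peak in both. As a rank among all peaks of a list, the median member peak stood at percentile 98.28 ± 0.0495 (SD, n = 2), beside 96.24 ± 0.00776 for all genes. Signal lay in the upper 25% of genes for 30 of 82 members (36.6%), beside 25% of all, and in the upper 50% for 72 (87.8%), beside 50% of all. In the lower 25% were 2 members, Cox4i2 and Ndufa4l2, beside 25% of all genes. In the upper 10% were 16 (19.5%), beside 10% of all, so the members were crowded above the middle of the range. The largest mean signal was 297.6, in Ndufs8, whereas the largest of any gene was 5377.

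**Figure D1:**
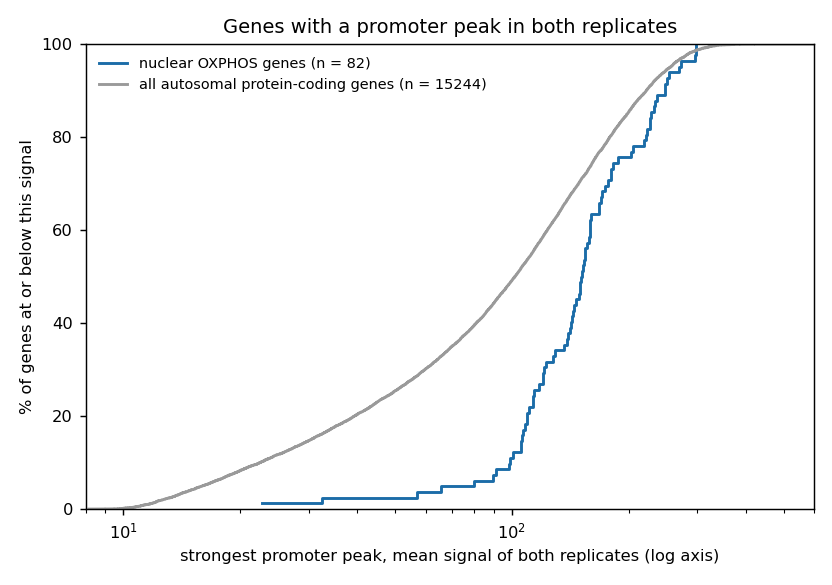
Cumulative share of genes (vertical axis, %) by mean promoter signal of the 2 replicates (horizontal axis, log scale, authors' unit, with a few of the highest values off the axis) for the oxidative phosphorylation genes and for all autosomal protein-coding genes with a peak in both replicates. The curve of the 82 members climbs most steeply between 115 and 186, its lower and upper quartiles, while that of all genes has its quartiles at 49.3 and 162.

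Part of the members' setting was a high CpG content, which is common in promoters of widely used genes. CpG observed over expected within 500 bp of the most 5′ TSS had a median of 0.722 in members and 0.568 in all genes. In the upper 2 of 5 equal CpG classes of all genes lay 56 of 86 members (65.1%), beside 40.0% of all genes. All 56 had a promoter peak in both replicates, beside 98.6% of all genes of these classes. Within the fourth class, the 37 members had median signals of 133.9 and 163.5, beside 120.3 and 133.8 for all genes of that class. Within the middle class, the 20 members with a peak had 136.0 and 156.5, beside 83.1 and 88.0. In the highest class, the 19 members had 167.3 and 175.3, beside 126.5 and 142.4. Member medians were thus above those of all genes in each of these 3 classes and in each replicate.

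The 7 core subunits of complex I, which carry its flavin and iron-sulfur clusters, had median signals of 167.3 and 186.1. Ndufs8 had 293.9 in replicate 1 and 301.4 in replicate 2. Ndufv1, the NADH-binding flavoprotein, had 250.9 and 287.7. Both stood high among all members. Ndufs7, another iron-sulfur subunit, had 103.5 and 136.4, and Ndufs3 had 98.2 and 112.6, from a peak shared with Kbtbd4. Ndufs8 and Ndufv1 were named as high and Ndufs7 and Ndufs3 as low by this same signal. That their replicate values did not overlap follows from this choice. Mean signals of the 7 core genes ran from 105.4 to 297.6.

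The 27 accessory subunits of complex I had medians of 127.4 and 156.7. Ndufb5, a membrane-arm subunit, had 281.9 and 310.5, from a peak it shares with the start of the mitochondrial ribosomal gene Mrpl47. Ndufv3, a small subunit of the NADH-oxidising arm, had 232.0 and 312.2, from a peak shared with Wdr4. Ndufa13, also known as GRIM-19, had 208.1 and 288.4, but its strongest peak was centred at -777.5 bp from its TSS, within 1 kb of a start of Yjefn3. At the low end, Ndufb3 had 78.80 and 100.02, from a peak shared with Fam126b, and Ndufc2 had 77.2 and 82.5. Both lay under the middle of all gene promoters, at percentile 43.6 for Ndufb3 and 39.7 for Ndufc2 among genes with a peak in both replicates.

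The 8 assembly factors, which build complex I but are not part of it, had medians of 128.1 and 162.1. Ndufaf8 had 169.3 and 178.4, Ndufaf2 had 143.6 and 197.4, and Ndufaf5, a hydroxylase of a core subunit, had 146.1 and 169.0. All 3 shared the peak with a divergent neighbour, Tepsin, Ercc8 and Esf1 in that order. Ndufaf6 had 91.2 and 120.5. Ndufaf1, a chaperone of the membrane arm, had 64.5 and 49.4, the lowest signal of any member outside the narrow isoforms.

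Complex III genes lay close together apart from 1. Uqcrq stood apart with 214.8 and 281.6, from a peak shared with Gdf9, an oocyte growth factor gene. Uqcrh, the hinge protein, had 145.6 and 172.5, and Uqcrc1, a core protein, had 144.8 and 171.9. At the low end were Uqcr10 with 130.7 and 141.3 and Uqcrb with 105.3 and 108.6. The peaks of Uqcrh, Uqcr10 and Uqcrb were shared too, with Lrrc41, Zmat5 and Gm10767 in that order. Between the first and last quartile of the 8 genes, the mean signal ran only from 138 to 158.

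In complex IV, the 11 widely used genes had medians of 140.8 and 157.3. Cox8a had 208.4 and 255.6, Cox6a1 had 203.2 and 242.5, and Cox5b, a nuclear subunit on the matrix side, had 200.4 and 242.4. The lowest of the 19 with a peak in both replicates were Cox4i2, with 32.1 and 32.8, and Ndufa4l2, with 20.4 and 25.1. Both are narrow isoforms, described next, and the lowest widely used gene was Ndufa4, with a mean of 113.

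In complex V, the F1 genes had the highest medians of the groups, 207.4 and 263.6, over 5 genes only. Atp5b, the catalytic beta subunit, had 238.0 and 268.0. Atp5d, the delta subunit, had 222.8 and 277.8, and Atp5c1, the gamma subunit of the central shaft, had 207.4 and 263.6. Atp5e, the epsilon subunit, had 140.7 and 141.4, and Atp5a1, the alpha subunit that sits beside beta in the F1 head, had 94.8 and 103.2. The peaks of Atp5c1 and Atp5a1 were shared with Kin and Haus1 in that order. Atp5b, Atp5d and Atp5c1 were named as high and Atp5e and Atp5a1 as low by this same signal. A gap between them follows from this choice.

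The 12 Fo and stalk genes had medians of 165.0 and 173.3. Atp5g1 had 282.9 and 311.1, the highest of the 3 genes for the same c subunit. Atp5g2 had 196.8 and 213.8, and Atp5g3 had 128.4 and 157.9. These 3 genes encode the same mature protein. Atp5g1 was named as high by this same signal and Atp5g2 after its values were seen. The gaps between the 3 genes were not tested. Atp5j, a stalk subunit, had 223.5 and 229.7, and Atp5f1, the b subunit of the stalk, had 204.95 and 249.3. Both peaks were shared, with Gabpa and Wdr77 in that order. The lowest were Atp5k, with 111.6 and 123.7, and Atp5j2, with 102.0 and 117.1, both small membrane subunits.

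Across complexes the ranges overlapped widely. Mean signals ran from 56.9 to 297.6 in complex I, 106.9 to 248 in complex III, 22.8 to 232 in complex IV and 99.0 to 297.0 in complex V. The upper 25% of genes held 15 of 42 members of complex I, 1 of 8 of complex III, 4 of 15 of complex IV and 10 of 17 of complex V, beside 25% of all genes. No test between complexes was made.

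**Figure D2:**
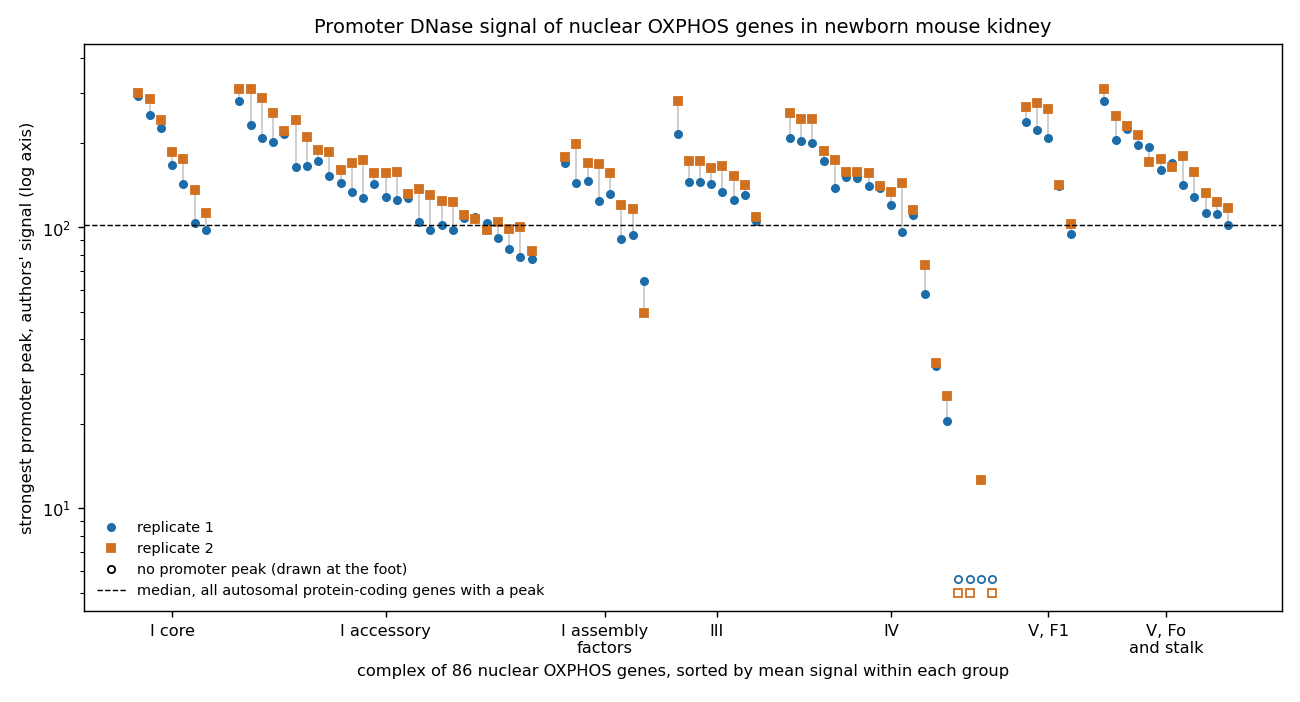
Strongest promoter peak signal (vertical axis, log scale, authors' unit) of each of the 86 genes in replicate 1 (circles) and replicate 2 (squares), grouped by complex and sorted by mean signal, with the median of all autosomal protein-coding genes as a dashed line. Most genes lie above the line, and the open symbols at the foot are Cox6a2, Cox7b2 and Cox8c, with no promoter peak in either replicate, and Cox8b, with none in replicate 1.

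Of the 8 narrow isoforms of complex IV, 4 had a promoter peak in both replicates (Cox7a1, Cox4i2, Cox6b2 and Ndufa4l2). Cox6a2, the heart and skeletal muscle form, had no promoter peak in either replicate, whereas its partner Cox6a1 had 203.2 and 242.5. The peaks nearest to Cox6a2 were centred at -1968.5 and -1988.5 bp from its TSS, in an intron of the integrin gene Itgad, with signals of 67.8 and 68.7. Cox8b had no promoter peak in replicate 1 and 12.6 in replicate 2, whereas Cox8a had 208.4 and 255.6. The Cox8b peak was centred 270.5 bp downstream of its TSS, and a weaker peak of replicate 2, with 10.4, at -69.5 bp. Cox8b in replicate 2 was therefore at 4.93% of its partner, and a peak that weak in 1 list of 2 is not a replicated value.

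Cox7a1 had 57.8 and 73.5, whereas its partner Cox7a2 had 171.8 and 187.6. The isoform stood at 33.6% and 39.2% of the partner, a log2 ratio of -1.46 ± 0.156 (SD, n = 2). Cox4i2 had 32.1 and 32.8, whereas Cox4i1 had 138.7 and 173.6. Cox4i2 stood at 23.1% and 18.9% of its partner, a log2 ratio of -2.26 ± 0.205. Ndufa4l2, a paralog of the complex IV subunit Ndufa4 known to be induced by low oxygen, had 20.4 and 25.1, whereas Ndufa4 had 110.7 and 115.2. That was 18.4% and 21.8% of the partner, a log2 ratio of -2.32 ± 0.170. In these 3 pairs the difference between isoform and partner was larger than the spread between replicates. The strongest peak of Cox4i1 also lay within 1 kb of starts of Emc8 and Gm27021, and that of Ndufa4 within 1 kb of a start of Phf14. The signal of such a peak cannot be divided between genes, which limits the ratios to these partners.

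The testis isoforms did not behave alike. Cox6b2 had 150.8 and 157.4, whereas Cox6b1 had 120.2 and 134.2, so the testis form was at 125% and 117% of its partner, a log2 ratio of 0.28 ± 0.0688 with no overlap between the 2 genes. Its peak was centred at -21.5 bp from its TSS and lay at no other protein-coding start. Cox7b2, whose partner Cox7b is X-linked, had no promoter peak in either replicate, and its nearest peaks lay 2449.5 bp downstream of the TSS with signals of 18.03 and 20.61. Cox8c had none either, and its nearest peaks lay far upstream, at -10320.5 bp in replicate 1 and -13360.5 bp in replicate 2.

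Markers of the tissues in which these isoforms are known were also read. Of 14 skeletal and heart muscle markers, 10 had a promoter peak in both replicates, with mean signals of 15.3 to 183, and Myh1, Myh4 and Myh6 had none in either. That share was 71.4%, near the 73.4% of all autosomal genes with such a peak, so such counts do not set the markers apart from other genes. Myh7 had a peak in replicate 2 only. Of 12 brown fat markers, a list that holds Cox7a1 itself, 10 had a peak in both, with mean signals of 11.3 to 121. Ebf2 had 124.2 and 117.7 and Prdm16 had 108.0 and 111.0, both transcription regulators, and the lipid droplet gene Plin1 had 64.8 and 72.2. The uncoupling protein gene Ucp1 had 12.4 and 10.2, and Adipoq had none. Of 7 germ cell markers, Dazl had 119.7 and 119.0, Ldhc had 12.7 and 12.2, and 5 had none in either. All 4 hypoxia markers had peaks, with mean signals of 38.6 to 132. What part other cell types had in the isoforms' signals was not tested.

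Promoter CpG content was lower in the narrow isoforms than in their autosomal partners. Cox6a2, Cox7a1, Cox8b, Cox4i2 and Ndufa4l2 had observed over expected values of 0.261, 0.277, 0.245, 0.379 and 0.186, whereas Cox6a1, Cox7a2, Cox8a, Cox4i1 and Ndufa4 had 0.962, 0.804, 0.693, 0.998 and 0.725. All 5 narrow forms lay in the second-lowest of the 5 CpG classes. Cox6b2, the isoform with the strongest promoter, had 0.432, against 0.777 for Cox6b1. Cox7b2 and Cox8c, without a promoter peak, had 0.468 and 0.464, both slightly above Cox6b2 and in the same middle class. What part CpG content had in the isoforms' signals was not tested. Atp5j2, a widely used member of that second-lowest class, had peaks in both replicates. Its strongest peak lay at another TSS than the most 5′ one, around which CpG content was counted.

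**Figure D3:**
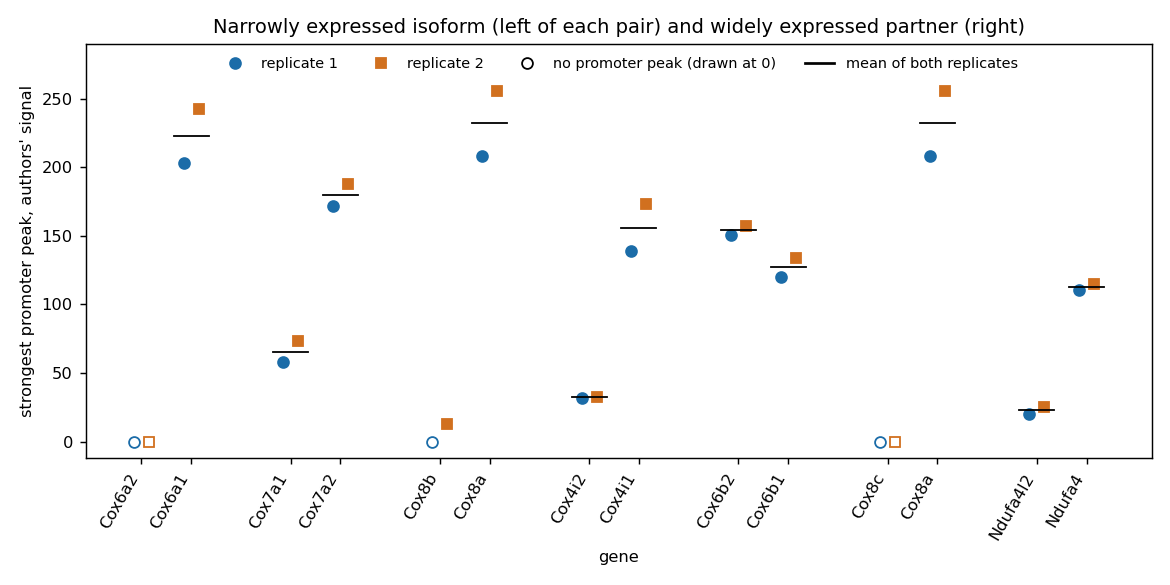
Promoter signal (vertical axis, linear, authors' unit) of 7 narrow isoforms, each with its widely used partner to its right, in replicate 1 (circles) and replicate 2 (squares), with the mean as a bar. Cox7a1, Cox4i2 and Ndufa4l2 lie below their partners in both replicates, Cox6b2 lies above Cox6b1, and open symbols at 0 mark replicates without a promoter peak, as in Cox6a2 and Cox8c.

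Member peaks lay close to the TSS. The median distance from the centre of the strongest peak to the nearest TSS of the gene was 39.0 bp in replicate 1 and 37.5 bp in replicate 2 for members, beside 68.5 and 67.5 bp for all genes. The centre was within 100 bp of a TSS in both replicates for 68 of 82 members (82.9%), beside 58.5% of all. It lay upstream of the TSS in both for 66 members (80.5%), beside 69.8% of all. The strongest peaks of the replicates overlapped for 81 of 82 members, beside 92.2% of all, and had identical coordinates for 57 (69.5%), beside 44.9% of all. Because peaks start every 20 bp at the finest and member peaks were all 150 bp wide, an offset is resolved only to that step.

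The 2 farthest peaks lay within 1 kb of a neighbour's start. For Ndufa13 that neighbour was Yjefn3. Ndufa11, a membrane subunit of complex I, had centres at -691.5 and -711.5 bp, within 1 kb of a start of the divergent gene Vmac. Cox7a2l, a factor for joining complexes III and IV, had its peak at -305.5 bp with no second gene there. More than 1 promoter peak in both replicates was found for 62 of 82 members (75.6%), beside 81.5% of all genes.

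**Figure D4:**
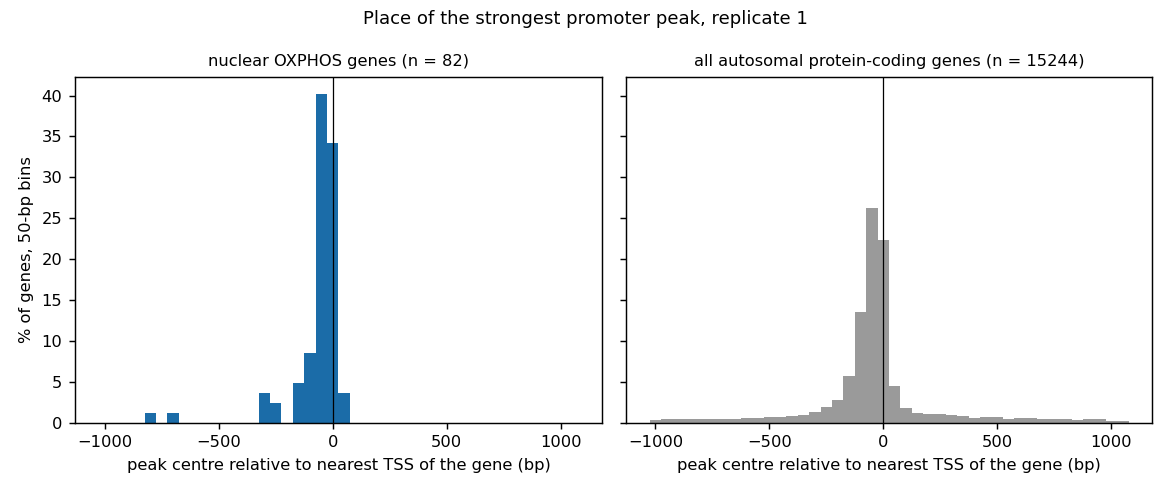
Share of genes (vertical axis, %, bins of 50 bp) by distance from the centre of the strongest promoter peak of replicate 1 to the nearest TSS of the gene (horizontal axis, bp, negative values upstream) for the oxidative phosphorylation genes and for all autosomal protein-coding genes with a peak in both replicates. Members gather just upstream of the TSS, with 68 of 82 within 100 bp in both replicates.

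Many of these peaks lay within 1 kb of a second gene's start as well. In both replicates the strongest peak also touched the promoter window of another protein-coding gene for 29 of 82 members (35.4%, interval 25.1 to 46.7), beside 17.6% of all genes. By complex these were 17 of 42 in complex I, 4 of 8 in complex III, 2 of 15 in complex IV and 6 of 17 in complex V. A divergent protein-coding TSS lay within 1 kb upstream for 26 members (31.7%), beside 13.5% of all. In those 26 the starts were a median of 96 bp apart, with a range of 10 to 574 bp, and 23 of them (88.5%) were within 200 bp, beside 70.0% for all genes with such a neighbour. The peak signal cannot be divided between the genes of such a pair.

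The neighbours have varied roles. Ndufa7, an accessory subunit of complex I, starts 10 bp from the ribosomal protein gene Rps28, and their common peak had 125.6 and 157.5. Ndufs1, the largest core subunit, starts 32 bp from the elongation factor gene Eef1b2, with 167.3 and 186.1. Atp5j starts 119 bp from Gabpa, which encodes the DNA-binding subunit of GABP. The DNA repair gene Ercc8 lies beside Ndufaf2.

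The high signals were found with and without a second gene. The 29 members with a shared peak had medians of 146.1 and 173.6, beside 143.4 and 161.8 for all genes with a shared peak. The 53 members with an unshared peak had 128.6 and 156.4, beside 87.2 and 93.4 for all such genes. Among unshared promoters, members had the higher median in each replicate.

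Matches to known motifs were looked for as exact letters on both strands. In the 300 bp from 250 bp before to 50 bp after the TSS nearest to the peak, a window of equal length for every gene, the 10-letter NRF1 motif (a palindrome, in capitals in the Cox6a1 sequence) stood in 6 of 82 members (7.32%, interval 2.73 to 15.2), beside 1.74% of all genes. Its 9-letter form GCGCATGCG, which lies inside the longer one, stood in 9 (11.0%), beside 3.12%. The 10-letter YY1 motif, printed in capitals with its matches, stood in 8 (9.76%, interval 4.31 to 18.3), beside 1.75%. The ETS letters CCGGAAGT stood in 8 (9.76%), beside 7.14%. The SP/KLF letters GGGCGGGG stood in 13 (15.9%, interval 8.72 to 25.6), beside 31.9%. The share for all genes lay outside the counting interval for NRF1, YY1 and SP/KLF, and these shares were not tested.

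The remaining motifs were near the share of all genes or too rare to read. CCAAT stood in 30 members (36.6%), beside 37.3%, the CRE TGACGTCA in 4 (4.88%), beside 3.23%, and TATAAA in 6 (7.32%), beside 6.73%. The ERR letters TCAAGGTCA stood in 1 member, beside 0.276% of all genes. The kidney motifs of HNF4 (CAAAGTCCA) and HNF1 (by name) stood in no member window, which with 82 windows allows a share of up to 4.40% (upper end of the exact interval). Their shares over all genes were 0.387% and 0%. A match is a string of letters and not a measured binding site, and a window without one says only that those letters are not there.

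**Figure D5:**
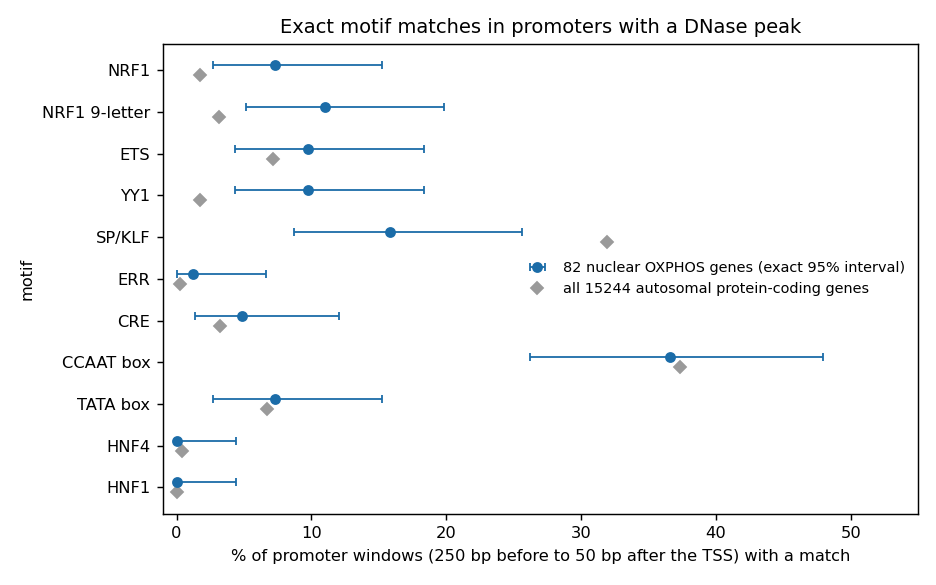
Share of genes (horizontal axis, %) with an exact match to each motif (vertical axis) in the promoter window of 300 bp, for the oxidative phosphorylation genes and for all autosomal protein-coding genes with a peak in both replicates, with exact 95% binomial intervals for the members. NRF1 and YY1 stand above the value of all genes and SP/KLF below it.

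Inside the peaks themselves, 6 members held the 10-letter NRF1 motif (7.32%), beside 1.64% of all genes, and 4 the YY1 motif (4.88%), beside 0.886%. The ETS motif stood in 6 (7.32%), near the 6.38% of all genes, and the ERR motif in 1, beside 0.105%. The SP/KLF motif stood in 7 (8.54%), beside 25.3%. The shorter NRF1 form, ETS or YY1 letters stood in the peaks of 19 members (23.2%), beside 9.72% of all genes, with peak regions of a median 150 bp in members and 170 bp in all genes, so lengths differ. The NRF1 matches are printed with the letters around them, since they come from 4 complexes: Atp5k at chr5:108434430-108434459 (minus strand), Cox6a1 at chr5:115349101-115349130 (minus strand), Ndufa13 at chr8:69903321-69903350 (minus strand), Ndufaf4 at chr4:24897960-24897989 (plus strand), Ndufaf5 at chr2:140170652-140170681 (plus strand) and Uqcrc1 at chr9:108936668-108936697 (plus strand). Capitals mark the match, and all 6 read on the gene's strand, which for this motif is also the other strand, since its letters are their own reverse complement.
Atp5k: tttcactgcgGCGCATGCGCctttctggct
Cox6a1: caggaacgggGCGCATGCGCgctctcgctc
Ndufa13: aatcgaggatGCGCATGCGCtctccagcaa
Ndufaf4: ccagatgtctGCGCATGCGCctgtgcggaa
Ndufaf5: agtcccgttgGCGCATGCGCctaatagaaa
Uqcrc1: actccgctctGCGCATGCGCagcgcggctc

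The bases around the shared core differed between the 6 genes. Their promoter signals did too, from 94.4 and 116.5 in Ndufaf4, an assembly factor, to 208.1 and 288.4 in Ndufa13. The match began between -782 bp from the TSS in Ndufa13 and 45 bp in Uqcrc1, counted along the gene. In Ndufa13 it lies in the peak that also touches the promoter window of Yjefn3.

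The ETS, YY1 and ERR matches are printed in the same way to show where they stood relative to the TSS. ETS matches lay at Atp5h, chr11:115419940-115419969, and Ndufs1, chr1:63176821-63176850, both on the plus strand, which is opposite to the gene. They lay at Ndufs3, chr2:90904703-90904732, and Uqcrh, chr4:116075063-116075092, also on the plus strand opposite to the gene, and at Uqcr11, chr10:80406869-80406898, on the minus strand of the gene itself. The other ETS match was in Atp5a1. YY1 matches lay at Atp5j, chr16:84835045-84835074, Ndufa9, chr6:126849096-126849125, and Ndufs4, chr13:114388040-114388069, all on the minus strand, and a further one in Ndufs7. The ERR match of Atp5g3 lay at chr2:73911360-73911388, on the plus strand opposite to the gene.
Atp5h: gaagagagttgCCGGAAGTtctctccttgg
Ndufs1: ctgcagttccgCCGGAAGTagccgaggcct
Ndufs3: aagggcacggaCCGGAAGTggaaatgtgca
Uqcrh: cggcgacctggCCGGAAGTgcggcatactc
Uqcr11: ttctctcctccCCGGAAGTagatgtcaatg
Atp5j: aagtgtaggaAAGATGGCGGagtcttagct
Ndufa9: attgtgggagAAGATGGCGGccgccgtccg
Ndufs4: tgcctacaggAAGATGGCGGcggtctcaat
Atp5g3: gggaagacgcTCAAGGTCActttgtaaca

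The ETS matches began between -57 and 4 bp from the TSS. In Ndufa9 and Ndufs4, both accessory subunits of complex I, the YY1 match began at the same place, 21 bp downstream of the TSS, and read in the direction of transcription. Signals of the pair were 107.8 and 111.1 in Ndufa9 and 83.5 and 98.5 in Ndufs4, both in the lower part of complex I.

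Away from the promoters, open sites were present near nearly every member. A distal site was one found in both replicates, within 50 kb of the most 5′ TSS of the gene and at no gene's start. At least 1 was found for 85 of 86 members (98.8%), beside 87.6% of all genes. Members had a median of 8 such sites with quartiles of 4 and 11, and all genes had 6 with quartiles of 3 and 11. All genes here include those without a promoter peak. Of genes with a peak in both replicates, those with an unshared strongest peak had a median of 8, and 327 of 12556 had no site. Those with a shared one had a median of 7, and 75 of 2688 had none. The members' median was thus near that of other genes with an open promoter. The median was 8 in complex I, 5 in complex III, 9 in complex IV and 8 in complex V. A site within 50 kb is near a gene and need not act on it.

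The 2 members with the weakest promoter peaks in both replicates had the most distal sites. Cox4i2 had 32 distal sites, a count reached by 0.255% of all genes, and Ndufa4l2 had 23. Next were Atp5h and Atp5o with 20 each and Cox4i1 with 19. At the other end, Uqcrb had none, its nearest lying 92187.5 bp away, and 8 members had 1. Among those 8 was Ndufb5, with 1 of the strongest promoters of complex I.

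Taking the strongest distal site of each of the 85 members, the medians were 67.1 and 73.8 in the 2 replicates, under the promoter medians of the same genes. The strongest of all was near Atp5d, at chr10:80159921-80160090, with 194.6 and 234.9, but it lay 5980 bp from the start of Cirbp and 21373.5 bp from that of Atp5d. The site of Cox4i2 at chr2:152735141-152735310 had 171.9 and 169.8, above its own promoter, and lay 1026 bp from Id1. Ndufa4l2 had a site at -1941.5 bp from its TSS, chr10:127512941-127513110, with 94.5 and 91.0, likewise above its promoter. Cox7a1 had 124.1 and 117.2 at a site at -40448.5 bp, and Cox8b had 74.6 and 92.5 at -8279.5 bp. These isoforms thus had a nearby open site stronger than their own promoter peak, which for Cox8b was present in replicate 2 only. Each such site is the strongest of several, 32 for Cox4i2, 23 for Ndufa4l2, 11 for Cox7a1 and 5 for Cox8b. Taking the strongest of many sites raises the distal value. A distal site stronger than the promoter was not particular to narrow isoforms. The widely used gene Ndufb6 had 143.8 and 154.9 at its strongest distal site, above its promoter with 104.4 and 137.6. The narrow isoform Cox6b2 went the other way, with 67.0 and 78.4 at its strongest distal site and 150.8 and 157.4 at its promoter.

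The signal as deposited was higher in replicate 2 for 77 of 82 members (93.9%), beside 73.6% of all genes. The median log2 ratio of replicate 1 over replicate 2 was -0.10 in members after the median of all genes was set to 0, and all 82 members differed by less than 2-fold before centring, beside 99.9% of all genes. Relative to all genes, Ndufaf1 was highest in replicate 1 with a log2 ratio of 0.51. Atp5h followed with 0.31 and Ndufa3 with 0.20. Cox6c, with signals of 96.7 and 143.8, was lowest with -0.45, followed by Ndufb4 with -0.43 and Ndufa13 with -0.34. Sequencer models are named for replicate 2 alone (a pair of them), and the part of sequencing in these ratios was not tested.

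A wider list outside the 86 took in complex II, cytochrome c, other assembly factors, the 3 X-linked subunits and 11 regulators. Of its 58 genes found in the annotation, 57 had a promoter peak in both replicates, beside 73.4% of all autosomal genes, with a median mean signal of 145.3. The exception was Cyct, the testis cytochrome c, with no peak in either replicate, whereas the somatic gene Cycs had 193.9 and 231.6. The 4 subunit genes of complex II, which feeds electrons from succinate, had mean signals of 132 to 242. All 18 complex IV assembly genes had peaks, with mean signals of 80.2 to 259. Bcs1l, which inserts the Rieske protein into complex III, had 295.5 and 321.1, and Sdhaf1, an assembly factor of complex II, had 13.8 and 17.8, the ends of the list. The 3 X-linked subunit genes had mean signals of 44.2 to 97.8, all under the median of the autosomal members. No value over all X-linked genes is given beside them and sex was not collected. The part of X linkage in these signals was not tested.

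The regulators of these genes had promoter peaks in both replicates in 11 of 11 cases. Esrra, an estrogen-related receptor, had 258.7 and 302.6, Yy1 had 227.2 and 255.2, and Gabpa had the 223.5 and 229.7 of the peak it shares with Atp5j. Gabpb1, the partner of Gabpa, had 106.7 and 114.3, and Nrf1 had 116.0 and 102.2. The coactivator genes differed. Pprc1 had 192.7 and 198.8, and Ppargc1b had 97.3 and 111.6. Ppargc1a had 40.8 and 42.9, the lowest of the 11. Of the factors for mitochondrial DNA itself, Tfb2m had 230.4 and 217.2, Polrmt had 199.1 and 196.5, and Tfam had 104.2 and 124.9.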

How the data were processed

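DNase-seq peaks of newborn mouse kidney were deposited as 1 list per replicate, so peaks were called per sample. Per the file headers, each list comes from 1 alignment of 36-nt reads to mm10 without alternate sequences. Aligner, peak caller, threshold and depth: not given in the sources used here. In each deposited list the signal of a peak is the authors' own value, with no scaling between samples stated, so ranks within a list are given beside it. The lowest deposited signal is 3.97 in replicate 1 and 3.0 in replicate 2.

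Genes came from GENCODE M21 on GRCm38, the same build, with records of the same symbol joined (87 member records, 86 symbols), and sequences were read from the RefSeq copy of that assembly (GRCm38.p6). A shared site joins overlapping peaks (at least 1 bp) that hold both replicates. The percentile of a peak is the share of peaks of its list with lower signal, with ties at their midpoint. With 1 group of 2 replicates no test between groups exists, so values stand per replicate or as mean ± SD (n = 2). Exact binomial intervals (95%) cover counting error only. Log2 ratios were centred by removing -0.13, the median over all genes.

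The rule for named genes took the narrow isoforms and their partners, the 3 highest and 2 lowest members of each group by rank, members without a peak in both replicates, the extremes of distal sites and of replicate ratio, members with NRF1, YY1 or ERR matches, and the regulators. Ndufs1, Ndufa7, Ndufa11, Ndufb6, Cox7a2l, Atp5g2, Sdhaf1, Bcs1l, Ebf2, Prdm16 and Plin1 were named after their values were seen. So were the strongest distal sites and the X-linked genes. The members, lists and motifs were chosen with earlier results of these data known. A gene that the rule names is not reported here, although the counts include it. No sequence from chromosome 18 and no protein sequence is shown. The finding of promoter peaks, distal sites and motifs was tested on simulated data. The tools were pysam 0.24.0, matplotlib 3.10.9, scipy 1.17.1, pandas 2.3.3 and numpy 2.4.6 under Python 3.11.15.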

Additional observations from a re-analysis of the deposited data

How the results depend on the processing

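Of 87 recomputed values for 23 results, 70 stayed within the replicate spread, the counting interval or 1.5 times the main count. The median distance to the TSS was 43.75 bp with TSSs of protein-coding transcripts only. The median percentile of members was 98.1988 with a 500-bp promoter window, 98.0206 for members with an unshared peak and 98.3766 in the upper 2 CpG classes. The distal median was 3.5 within 25 kb, 16.5 within 100 kb, 7.5 when 50% of both peaks had to overlap, 4.0 with the upper 50% of peaks, and 10 to 10 without either replicate, since each list alone keeps unshared sites (all genes 8 and 9). The complex IV percentile was 98.0128 with a 2-kb window, which adds 2 narrow isoforms, and 98.0268 to 98.1838 without either replicate. With 1 mismatch allowed, member shares were 36.6% for ETS, 34.1% for the 9-letter and 29.3% for the 10-letter NRF1 motif, 57.3% for SP/KLF and 14.6% for YY1, beside 25.9%, 14.7%, 10.5%, 67.1% and 4.19% of all genes. Other values without either replicate ranged from 82 to 83 for members with a peak, 29 to 29 for shared peaks, 4 to 5 for narrow isoforms, 57 to 57 for pathway genes, 37.5 to 39.0 bp for the distance, and 98.2404 to 98.2669 for the percentile. No paired analysis was possible because the study has 1 group. Depth is unknown, so the precision of single peaks cannot be given, and a gene without a peak may lie under the peak caller's unstated threshold.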
